A study of Mus musculus with 30 samples.

Results

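The liver sinusoid is lined by an endothelium unlike that of other capillaries: its cells carry open pores without a basement membrane and take up waste molecules from blood through scavenger receptors. In chronic liver injury this endothelium can lose its pores and gain a basement membrane and surface proteins of ordinary blood capillaries, a process called capillarization. The 10 genes examined here were taken by their symbols as genes of those 2 states. The rule used no measured value, but the genes were chosen with earlier results of these data known. The 6 sinusoidal genes were *Stab1*, *Stab2*, *Lyve1*, *Flt4*, *Clec4g* and *Kdr*, and the 4 capillary-type genes were *Pecam1*, *Plvap*, *Vwf* and *Cd34*. All 10 of them were found among the 55450 genes of the count table, each as a single protein-coding gene, and all 10 passed the low-count filter in every comparison. On GRCm38, *Stab2* lies at chr10:86841198-87008025, *Clec4g* at chr8:3707064-3720651, *Flt4* at chr11:49609263-49652739, *Vwf* at chr6:125546774-125686679 and *Cd34* at chr1:194938819-194961279.

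The livers came from male mice of 6 groups with 5 mice each, and each mouse gave 1 RNA-Seq library. All mice carried floxed *Cebpa* alleles, had been backcrossed to C57BL/6N and were given a diet rich in fat, cholesterol and fructose (HFCFD), so no group was on a standard diet. In HFCFD2W, *Cebpa* ΔHep mice, with Cre driven by the albumin promoter and therefore active in hepatocytes from early life, were compared with Cre-negative *Cebpa* fl/fl mice after 2 weeks of HFCFD and without tamoxifen. In HFCFD8W+T10D, *Cebpa* ΔHep,ERT2 mice, with a tamoxifen-inducible albumin-ERT2-cre, and Cre-negative *Cebpa* fl/fl mice were labelled with 8 weeks of HFCFD and 10 days of tamoxifen, given at the end. In HFCFD12W+T10W, *Cebpa* ΔHep,ERT2 and *Cebpa* fl/fl mice received 22 weeks of HFCFD in all, with tamoxifen during the last 10 weeks. The deletion was thus directed to hepatocytes, and every value below is from whole liver, in which fewer endothelial cells and less RNA per endothelial cell cannot be told apart.

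Libraries held 7996142 to 10257364 counts. *Cebpa* itself was lower in every deleted liver than in every *Cebpa* fl/fl liver of its experiment, at 19.2% of the fl/fl level in HFCFD12W+T10W, 12.1% in HFCFD8W+T10D and 2.7% in HFCFD2W. The general endothelial genes *Cdh5*, *Tie1*, *Tek* and 21 others were all detected in each group, with a summed level of 206.9 to 368.5 CPM (counts scaled to library size) over the 30 livers. The labels call the mice biological replicates and do not tell littermates or sequencing batches.

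The regions just upstream of the transcription start are shown for *Stab2* and *Clec4g*, the sinusoidal genes that were lower after deletion in HFCFD12W+T10W, and for *Cd34*, the capillary-type gene with the largest difference. They were taken from RefSeq on GRCm38.p6, on the strand of the gene, and bases inside the GENCODE gene model were left off. Capitals mark AGGAAG or its reverse complement, a form of the motif bound by ETS factors, a family with endothelial members. The *Stab2* sequence lies at chr10:87008026-87008192 on the minus strand, the *Clec4g* sequence at chr8:3720652-3720901 on the minus strand, and the *Cd34* sequence at chr1:194938571-194938818 on the plus strand.
Stab2: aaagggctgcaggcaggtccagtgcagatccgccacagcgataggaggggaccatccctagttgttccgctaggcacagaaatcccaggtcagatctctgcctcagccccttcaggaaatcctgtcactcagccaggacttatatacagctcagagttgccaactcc
Clec4g: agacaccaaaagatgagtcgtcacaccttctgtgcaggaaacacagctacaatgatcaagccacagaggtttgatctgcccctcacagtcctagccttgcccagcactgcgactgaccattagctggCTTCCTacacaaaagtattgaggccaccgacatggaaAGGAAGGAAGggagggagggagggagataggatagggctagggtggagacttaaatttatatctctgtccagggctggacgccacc
Cd34: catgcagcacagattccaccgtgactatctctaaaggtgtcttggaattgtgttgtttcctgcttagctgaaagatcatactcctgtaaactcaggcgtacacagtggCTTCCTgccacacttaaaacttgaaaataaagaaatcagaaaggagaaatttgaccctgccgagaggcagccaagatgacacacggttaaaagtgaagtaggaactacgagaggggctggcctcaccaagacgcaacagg

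The *Clec4g* sequence held 3 matches, of which 2 overlap, and the *Cd34* sequence held 1. The 167 bases printed for *Stab2* held 0, but its full window of 250 bases, of which 83 lie inside the gene model, held 1. Of 32841 promoter entries of the same table, 29.5% held at least 1 match on either strand within 250 bases upstream. The sequence GATAA, a form of the motif bound by GATA factors such as GATA4, was searched in the same way. It was found in 22.6% of all entries and in 0 of the 6 members with an entry, which also include *Stab1*, *Flt4* and *Kdr*. Other forms were not searched, such as GATAG, which stands in the printed *Stab2* and *Clec4g* sequences. *Lyve1*, *Pecam1*, *Plvap* and *Vwf* were not matched.

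Per unit of transcript length, *Clec4g* was the most abundant of the 10 genes in all 6 groups. Its mean ranged from 28.5 TPM (a relative level that takes transcript length into account) in HFCFD2W *Cebpa* fl/fl livers to 44.1 TPM in HFCFD12W+T10W *Cebpa* fl/fl livers. *Stab1* and *Plvap* held the next places in every group, with means of 18.4 to 25.4 TPM and 11.5 to 29.8 TPM. *Cd34* was the least abundant gene in 5 of the 6 groups, with means of 0.664 to 2.77 TPM, and stood above *Vwf* only in *Cebpa* ΔHep,ERT2 livers of HFCFD12W+T10W, at 8.18 ± 2.69 TPM against 6.16 ± 2.30 TPM (SD, n = 5). TPM values also carry the composition of each library and the isoforms that RSEM assigned in it: the ratio of TPM to CPM differed between libraries by 1.85 times for *Clec4g*, by 2.58 times for *Stab1* and by 3.96 times for *Vwf*. Differences between groups are therefore given in CPM after edgeR's TMM scaling, which adjusts for library composition, and were tested on the counts by the quasi-likelihood test of edgeR with Benjamini-Hochberg adjustment over the whole set of tested genes. Genes counted as changed, or called, had an adjusted p under 0.05 with no minimum fold change. On the TPM scale the median of all genes shifted upwards in deleted livers against the TMM scale, by 0.36 (log2) in HFCFD12W+T10W, 0.20 in HFCFD8W+T10D and 0.11 in HFCFD2W. Relative to that shift, *Stab2*, *Clec4g*, *Flt4*, *Vwf* and *Cd34* differed by -0.76, -0.45, 0.70, 0.71 and 2.68 in HFCFD12W+T10W, the same directions as in CPM. Some differences that were not called had the opposite sign to CPM on that scale. They were those of *Stab1* (-0.086) and *Lyve1* (0.129) in HFCFD12W+T10W, *Vwf* (0.274) in HFCFD8W+T10D and *Stab1* (-0.087) in HFCFD2W.

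**Figure D1:**
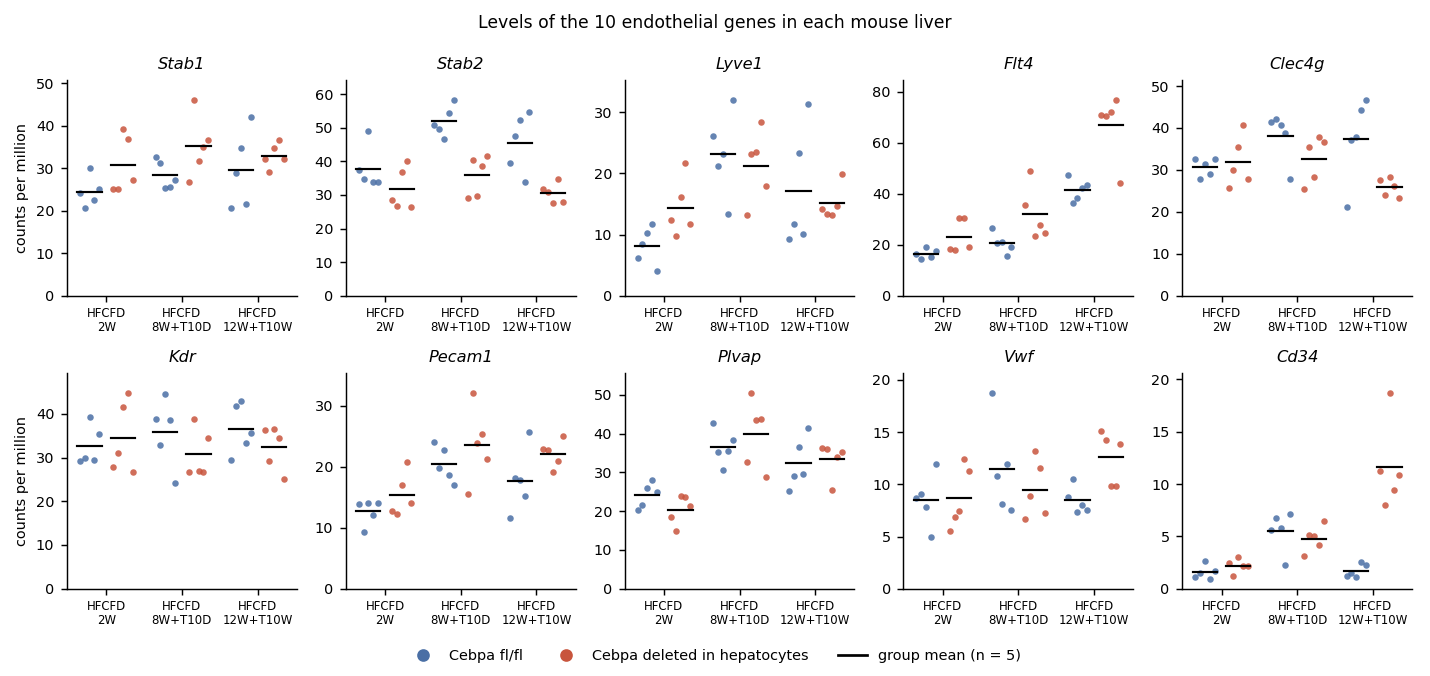
CPM of each gene (y axis, from 0) in each mouse of the 3 experiments (x axis), for *Cebpa* fl/fl and *Cebpa*-deleted livers, with a line at each group mean (n = 5). The *Cd34* values of the deleted livers in HFCFD12W+T10W, 8.001 to 18.7 CPM, lie above all other groups, and the *Stab2* values of the deleted livers in HFCFD8W+T10D lie below all their controls.

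*Stab1* and *Stab2* encode stabilin-1 and stabilin-2, the large scavenger receptors of the sinusoidal cell. *Stab2* was lower in both tamoxifen experiments. In HFCFD8W+T10D its levels were 50.9, 49.6, 46.6, 54.5 and 58.4 CPM in *Cebpa* fl/fl livers and 29.02, 40.5, 29.8, 38.7 and 41.5 CPM in *Cebpa* ΔHep,ERT2 livers. All 5 deleted livers lay below all 5 controls, a log2 fold change of -0.52 (SE 0.12, adjusted p = 0.0113, edgeR). *Stab2* was the only one of the 10 genes without overlap in that experiment, in which 11.5% of all tested genes had none.

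In HFCFD12W+T10W the *Stab2* levels were 39.6, 47.6, 52.3, 33.9 and 54.6 CPM in *Cebpa* fl/fl livers and 31.6, 30.8, 27.6, 34.7 and 27.9 CPM in *Cebpa* ΔHep,ERT2 livers. The deleted livers were low and close together, and only the lowest control, replicate 4, fell within their range. The log2 fold change was -0.54 (SE 0.13, adjusted p = 0.00282, edgeR), and the exact two-sided permutation test of the 2 groups of 5 gave p = 0.0159 where 0.00794 is the smallest possible. In HFCFD2W, where *Cebpa* ΔHep livers averaged 31.7 ± 6.38 CPM against 37.8 ± 6.47 CPM (SD, n = 5), *Stab2* was not called, with a log2 difference of -0.27 and a 95% interval of -0.57 to 0.04. The *Stab2* effects of the experiments were not shown to differ (HFCFD12W+T10W minus HFCFD2W -0.32, 95% interval -0.72 to 0.07).

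*Stab1* was not called in any experiment, with a log2 fold change of 0.19 (95% interval -0.19 to 0.56) in HFCFD12W+T10W, 0.33 (0.03 to 0.63) in HFCFD8W+T10D and 0.31 (0.002 to 0.62) in HFCFD2W. Its levels spread most in *Cebpa* fl/fl livers of HFCFD12W+T10W, at 20.7, 29, 34.8, 21.5 and 42.2 CPM, and the controls there lay both above and below the deleted livers. *Nt5dc2*, a gene on the opposite strand, overlaps *Stab1* and reached 37.7 CPM, and the libraries were strand-specific.

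*Lyve1*, a receptor for hyaluronan on sinusoidal and lymphatic endothelium, was not called in any genotype comparison. In HFCFD2W it measured 6.10, 8.47, 10.2, 11.7 and 4.09 CPM in *Cebpa* fl/fl livers and 12.3, 9.77, 16.2, 21.6 and 11.7 CPM in *Cebpa* ΔHep livers. The deleted livers were higher on average but the groups overlapped, and the log2 fold change of 0.80 (SE 0.26) had an adjusted p of 0.0539 by edgeR. DESeq2 placed the same gene past the threshold, at an adjusted p of 0.0284, and the adjusted p ran from 0.0284 to 0.224 over 6 alternatives. Its log2 difference in HFCFD8W+T10D was -0.12 (95% interval -0.61 to 0.38). That of HFCFD12W+T10W was -0.16 (95% interval -0.82 to 0.50), and it turned to 0.17 without *Cebpa* fl/fl replicate 5, the control with the highest level, 31.3 CPM.

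*Clec4g* encodes the lectin LSECtin, made in the liver mainly by sinusoidal endothelium. It was lower in HFCFD12W+T10W, at 27.6, 23.9, 28.4, 26.1 and 23.3 CPM in *Cebpa* ΔHep,ERT2 livers against 21.2, 37.05, 37.8, 44.4 and 46.8 CPM in *Cebpa* fl/fl livers. Control replicate 1 was the lowest of the 10 livers, and the other 4 controls lay above all deleted livers. The log2 fold change was -0.50 (SE 0.17, adjusted p = 0.0259, edgeR). It became -0.67 without that control, and 4 of the 10 fits that left out a mouse ended the call, with adjusted p up to 0.0592. Upper quartile normalization gave an adjusted p of 0.0579. In HFCFD2W and HFCFD8W+T10D the log2 differences of *Clec4g* were 0.05 and -0.21, with 95% intervals of -0.20 to 0.30 and -0.51 to 0.10.

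*Kdr* and *Flt4* encode the receptors VEGFR2 and VEGFR3 of vascular endothelial growth factors. *Kdr* was not called in any experiment, with log2 differences of 0.07, -0.20 and -0.14 and 95% intervals that reached from -0.56 to 0.39 over the 3 experiments. *Flt4* was higher in deleted livers on average in each experiment and was called in 2 of them. In HFCFD2W its levels were 16.4, 14.3, 19.1, 15.2 and 17.6 CPM in *Cebpa* fl/fl livers and 18.3, 17.9, 30.4, 30.4 and 19.2 CPM in *Cebpa* ΔHep livers. Of the 5 deleted livers, 2 stood well above the controls at 30.4 CPM each, and the log2 fold change of 0.48 (SE 0.17) missed the threshold at an adjusted p of 0.0678 (edgeR).

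In HFCFD8W+T10D *Flt4* measured 26.4, 20.8, 21.02, 15.4 and 18.9 CPM in *Cebpa* fl/fl livers and 35.4, 48.8, 23.5, 27.7 and 24.6 CPM in *Cebpa* ΔHep,ERT2 livers. Control replicate 1 lay within the range of the deleted livers, and the log2 fold change was 0.66 (SE 0.20, adjusted p = 0.041, edgeR). Without *Cebpa* ΔHep,ERT2 replicate 2, the highest liver, it was 0.45 with an adjusted p of 0.0893, and 6 of the 10 fits that left out a mouse ended the call.

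In HFCFD12W+T10W *Flt4* measured 47.3, 36.4, 38.2, 42.2 and 43.4 CPM in *Cebpa* fl/fl livers and 70.8, 70.4, 72.2, 76.97 and 44.1 CPM in *Cebpa* ΔHep,ERT2 livers. Of the deleted livers, 4 were close together above 70 CPM and replicate 5 lay among the controls. The log2 fold change was 0.73 (SE 0.14, adjusted p = 0.00065, edgeR), and it stayed past the threshold in each of the 10 fits that left out a mouse and in the 6 other alternatives.

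*Pecam1* encodes PECAM-1 (CD31), a junction protein of endothelium, and *Plvap* encodes the protein of the diaphragms that close endothelial pores. Neither was called in any experiment. In HFCFD12W+T10W, *Pecam1* measured 11.5, 18.1, 17.8, 15.3 and 25.6 CPM in *Cebpa* fl/fl livers and 22.96, 22.7, 19.1, 20.9 and 25.01 CPM in *Cebpa* ΔHep,ERT2 livers. Control replicate 5 exceeded all deleted livers and the other 4 controls lay below all of them. The log2 fold change of 0.36 (SE 0.17) had an adjusted p of 0.0953 by edgeR, and without that control it was 0.52 with an adjusted p of 0.00649. The log2 difference of *Plvap* was 0.08 (95% interval -0.22 to 0.38) in HFCFD12W+T10W, 0.15 (-0.18 to 0.47) in HFCFD8W+T10D and -0.25 (-0.54 to 0.03) in HFCFD2W.

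*Vwf* encodes von Willebrand factor, a clotting protein of larger vessels that sinusoidal cells normally hold at low levels. In HFCFD12W+T10W it measured 8.80, 10.5, 7.39, 8.05 and 7.57 CPM in *Cebpa* fl/fl livers and 15.2, 14.2, 9.88, 9.80 and 13.9 CPM in *Cebpa* ΔHep,ERT2 livers. The lowest deleted livers, replicates 3 and 4, lay just below the highest control, and the log2 fold change was 0.61 (SE 0.15, adjusted p = 0.00487, edgeR). The call was kept in each of the 10 fits that left out a mouse, and the joint fit of all 30 libraries gave an adjusted p of 0.0506. Platelet markers moved slightly with it, at 4.65 to 8.71 CPM summed over 6 genes in the deleted livers and 3.29 to 5.76 CPM in the controls, of which 2 were tested, with *Pf4* called higher and *Itga2b* not called, and none of the 6 was at 0 in either group. Their part in the result was not tested.

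In HFCFD8W+T10D *Vwf* was not called, with a log2 difference of -0.26 and a 95% interval of -0.82 to 0.31. Its highest value there, 18.8 CPM, came from *Cebpa* fl/fl replicate 1, the liver that also held the highest summed platelet markers, 61.3 CPM against 3.35 to 10.9 CPM in the other 4 controls. In HFCFD2W the log2 difference of *Vwf* was 0.03, with a 95% interval of -0.52 to 0.57.

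*Cd34*, a surface sialomucin of ordinary capillaries, of blood progenitors and of some fibroblasts, showed the largest difference of the 10 genes. In HFCFD12W+T10W it measured 1.19, 1.47, 1.16, 2.53 and 2.22 CPM in *Cebpa* fl/fl livers and 11.2, 8.001, 18.7, 9.44 and 10.9 CPM in *Cebpa* ΔHep,ERT2 livers. The groups were far apart, with counts of 10 to 22 per library in the controls and 86 to 220 in the deleted livers. The fold change was 6.90 (log2 2.79, SE 0.28, adjusted p = 6.06e-06, edgeR), and it ran from 2.55 to 2.94 on the log2 scale with a mouse left out. *Cd34* was the only one of the 10 genes that passed a fold change over 2 as well as the adjusted p in that experiment, where 17.7% of the tested genes did, and the only one without overlap, where 38.9% of the tested genes had none.

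In HFCFD8W+T10D *Cd34* measured 5.57, 6.79, 5.77, 2.23 and 7.10 CPM in *Cebpa* fl/fl livers and 3.10, 5.09, 5.08, 4.18 and 6.47 CPM in *Cebpa* ΔHep,ERT2 livers. The ranges overlapped almost completely, with a log2 difference of -0.18 and a 95% interval of -0.78 to 0.43. In HFCFD2W the levels were low in both groups, 1.16, 1.46, 2.67, 0.960 and 1.69 CPM in *Cebpa* fl/fl livers and 2.46, 1.221, 3.08, 2.18 and 2.15 CPM in *Cebpa* ΔHep livers, and the log2 difference was 0.44 with a 95% interval of -0.23 to 1.101.

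**Figure D2:**
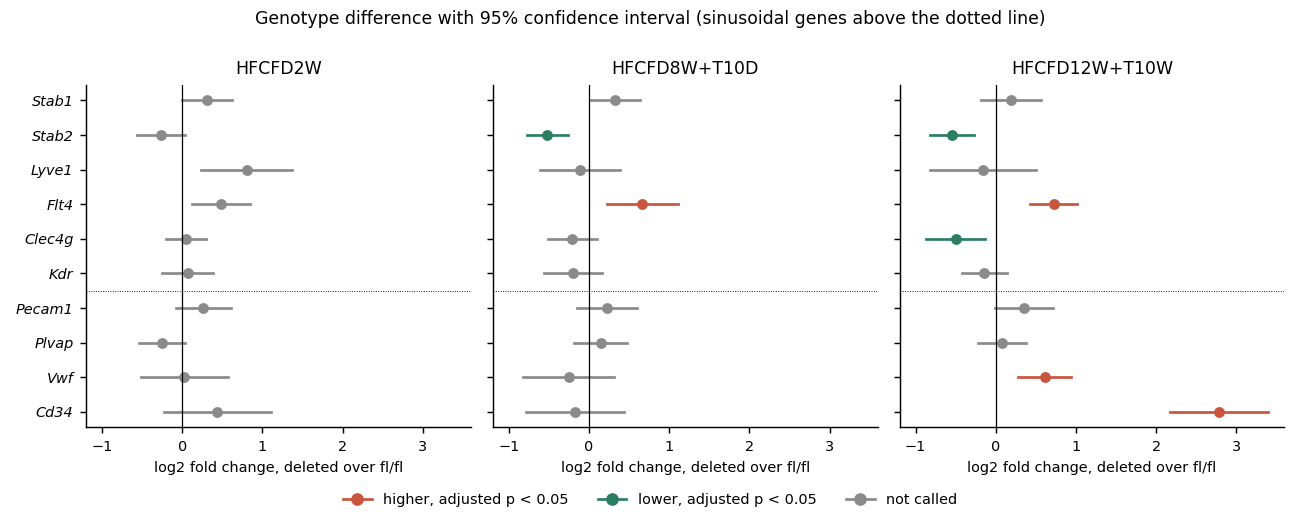
Log2 fold change of deleted over *Cebpa* fl/fl livers (x axis) with its 95% confidence interval for each gene (rows) in the 3 experiments, from edgeR. *Stab2* and *Clec4g* lie below 0 and *Flt4*, *Vwf* and *Cd34* above 0 in HFCFD12W+T10W, where *Cd34* reaches 2.79.

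By counts, 0 of the 10 genes were called in HFCFD2W, where 8.6% of the 11068 tested genes were higher and 8.09% were lower after deletion. At an unadjusted p under 0.05 by the same edgeR test there were 3, *Stab1*, *Lyve1* and *Flt4*, while DESeq2 called 1, *Lyve1*, and limma on the authors' normalized table called 0. In HFCFD8W+T10D, 1 of 10 was higher and 1 of 10 was lower, against 10.2% and 6.83% of the 11992 genes tested. In HFCFD12W+T10W, 3 of 10 were higher and 2 of 10 were lower, against 27.4% and 23.8% of the 12463 genes tested. These shares were near those of all genes. Both a call and a fold change over 2 were reached by 0 of 10 in HFCFD2W (3.07% of all genes) and by 0 of 10 in HFCFD8W+T10D (6.1%). In HFCFD2W, 0 of 10 were without overlap (12.4%).

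The genotype effect itself differed between experiments for 2 of the 10 genes. In the joint fit of all 30 libraries, the *Cd34* effect was larger in HFCFD12W+T10W than in HFCFD8W+T10D by 2.93 on the log2 scale (SE 0.41, adjusted p = 0.000147, edgeR) and than in HFCFD2W by 2.31 (SE 0.48, adjusted p = 0.000611, edgeR). Both differences stayed past the threshold in each of the 20 fits that left out a mouse. The *Clec4g* effect was lower in HFCFD12W+T10W than in HFCFD2W by 0.59 (log2 difference -0.59, SE 0.22, adjusted p = 0.0404, edgeR), but 13 of 20 fits that left out a mouse did not hold it, with adjusted p up to 0.116. Among all 12964 genes tested, 10.5% differed between HFCFD12W+T10W and HFCFD8W+T10D, 30.7% between HFCFD12W+T10W and HFCFD2W, and 11.2% between HFCFD8W+T10D and HFCFD2W, where 0 of the 10 genes differed by edgeR or by DESeq2 and 1, *Lyve1*, had an unadjusted p under 0.05. Between HFCFD2W and the other two experiments the Cre line, the time on diet and tamoxifen all changed, and their parts cannot be told apart.

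The levels also differed between the *Cebpa* fl/fl controls of the experiments. From HFCFD2W to HFCFD8W+T10D, 5 of 10 genes were higher and none was lower in the controls, against 43.6% of all genes that changed in either direction. The log2 differences were 1.73 for *Cd34* (SE 0.33), 1.49 for *Lyve1* (SE 0.31), 0.67 for *Pecam1* (SE 0.19), 0.58 for *Plvap* (SE 0.15) and 0.44 for *Stab2* (SE 0.14), with adjusted p from 9.56e-05 to 0.00972 by edgeR. Sinusoidal and capillary-type genes were thus both among them.

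From HFCFD8W+T10D to HFCFD12W+T10W, 2 of 10 genes changed in the controls, where 11.4% of all genes did. *Flt4* was higher by 1.02 (SE 0.19, adjusted p = 0.000521, edgeR) and *Cd34* fell by 1.66 on the log2 scale (SE 0.31, adjusted p = 0.000749, edgeR). The order of the group means of *Cd34* therefore ran from 11.7 ± 4.16 CPM in *Cebpa* ΔHep,ERT2 livers of HFCFD12W+T10W through 5.49 ± 1.94 and 4.78 ± 1.25 CPM in controls and deleted livers of HFCFD8W+T10D to 2.22 ± 0.670, 1.71 ± 0.626 and 1.59 ± 0.668 CPM in the other 3 groups (SD, n = 5 each). The ranges of neighbours in that order were apart only between the first and the second and between the third and the fourth. For the other 9 genes, all neighbouring groups in the order of means overlapped. The experiments differ in age on diet and in tamoxifen, and no label tells whether they were sequenced together.

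The 6 sinusoidal and the 4 capillary-type genes were also set against each other within each mouse, as the mean log2 CPM of the former minus that of the latter. This difference averaged 1.73 ± 0.21 in controls and 0.77 ± 0.19 in deleted livers of HFCFD12W+T10W (SD, n = 5), with ranges of 1.47 to 2.03 and 0.54 to 1.03. In HFCFD8W+T10D it averaged 1.104 ± 0.12 and 1.09 ± 0.22, and in HFCFD2W 1.45 ± 0.22 and 1.56 ± 0.20, with overlapping ranges in both. The value is a description and was not tested.

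The mean of the sinusoidal genes in HFCFD12W+T10W, which averages over the higher *Flt4* and the lower *Stab2* and *Clec4g*, was 5.01 ± 0.30 in controls and 4.94 ± 0.10 in deleted livers, while that of the capillary-type genes was 3.28 ± 0.22 and 4.17 ± 0.11 (log2 CPM, SD, n = 5). Much of the difference lay in *Cd34*: without it, the sinusoidal minus capillary-type value was 0.93 ± 0.14 in the controls and 0.55 ± 0.27 in the deleted livers, and the ranges of 0.81 to 1.12 and 0.27 to 0.89 overlapped. With *Cd34* included, the controls of HFCFD8W+T10D, at 0.94 to 1.23, stood lower than the 1.47 to 2.03 of the HFCFD12W+T10W controls, and without *Cd34* their ranges of 0.38 to 0.83 and 0.81 to 1.12 overlapped.

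**Figure D3:**
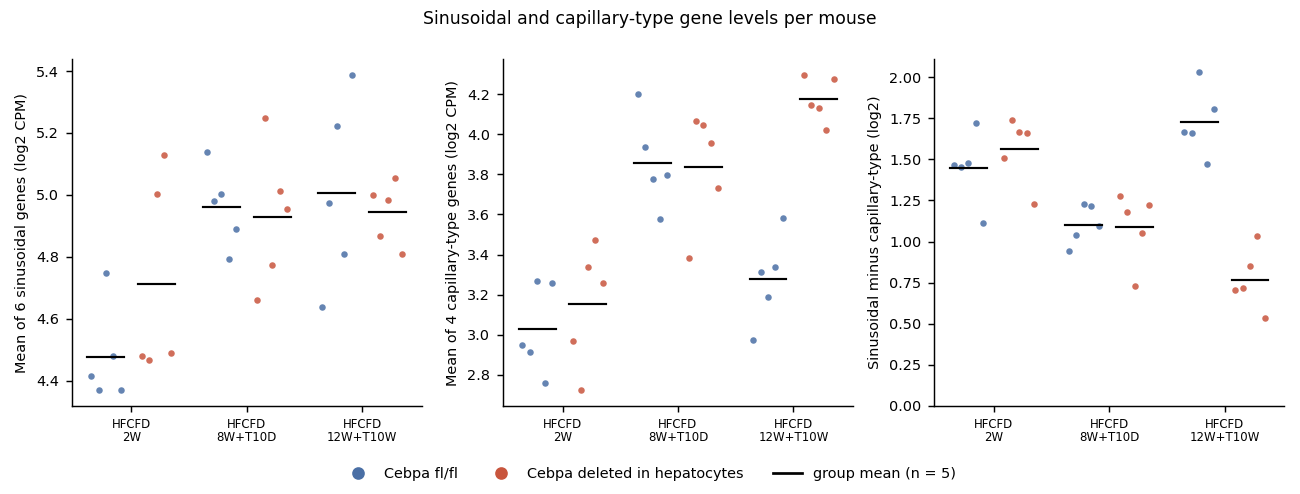
Mean log2 CPM of the 6 sinusoidal genes (left), of the 4 capillary-type genes (middle) and the difference of these means (right) per mouse, by experiment and genotype, with a line at the group mean (n = 5). In HFCFD12W+T10W the differences of the deleted livers, 0.54 to 1.03, lie below those of the controls, 1.47 to 2.03.

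Within groups, the 10 genes varied together to different degrees. After each group's mean was taken out, the correlation over the 30 livers had a median of 0.51 among the 15 pairs of sinusoidal genes, 0.29 among the 6 pairs of capillary-type genes and 0.31 between the 2 kinds. *Stab1* and *Stab2* reached r = 0.79, as did *Stab1* and *Pecam1*, and *Vwf* and *Cd34* had r = -0.04. With the mean of the 24 general endothelial genes, r was 0.90 for *Stab1*, 0.87 for *Pecam1*, 0.73 for *Clec4g*, 0.71 for *Kdr* and 0.69 for *Stab2*, but 0.44 for *Flt4*, 0.28 for *Cd34* and 0.21 for *Vwf*. The points of these correlations share the library and its scaling.

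The genes most like 4 of the members over all 30 libraries were ranked among 12106 genes with a mean of at least 1 CPM. For *Clec4g* they were *Cyp4b1*, *Oit3*, *Timd4*, *Gpr182* and *Tpbgl*, with r of 0.77 to 0.73, and 0.68 to 0.76 once the group means were taken out. Of these, *Oit3* and *Gpr182* are sinusoidal endothelial genes and *Timd4* is a gene of resident macrophages. For *Cd34* they were *Col4a4*, *Tmem119*, *Crip1*, *Ezr* and *Svep1*, with r of 0.92 to 0.90 that include the differences between groups, and 0.38 to 0.72 within groups. For *Plvap* they were *Sod3*, *Hexa*, *Prelp*, *Pdk4* and *Grn*, with r of 0.90 to 0.86 (0.53 to 0.73 within groups), and for *Stab2* *Gstt3*, *Snx33*, *4732465J04Rik*, *Josd1* and *Ormdl3*, with r of 0.81 to 0.78 (0.30 to 0.73 within groups).

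The wider endothelial lists are given beside the share of all tested genes that were called in the same direction, and no test compared the lists. These lists, too, were chosen with earlier results of these data known. Of 24 general endothelial genes, 23 were tested in each experiment, and those called higher and lower were 2 and 1 in HFCFD12W+T10W, 0 and 1 in HFCFD8W+T10D and 1 and 1 in HFCFD2W, with median log2 fold changes of 0.08, -0.01 and 0.23. The medians of all tested genes were 0.01 in each experiment, and 27.4%, 10.2% and 8.6% of all tested genes were higher and 23.8%, 6.83% and 8.09% were lower in that order. *S1pr1*, the receptor for sphingosine-1-phosphate, was the gene lower in each of them, by log2 fold changes of -0.70, -0.80 and -0.56 in order of time (adjusted p = 0.000122, 0.00714 and 0.000296, edgeR). In HFCFD12W+T10W the number lower in this list rose to 3 without *Cebpa* fl/fl replicate 1. The median turned to -0.07 without that control and to -0.015 without control replicate 4. The number higher there ran from 1 to 4 over the alternatives and from 1 to 3 with a mouse left out. HFCFD2W had 0 to 1 higher over the alternatives and 0 to 2 with a mouse left out. HFCFD8W+T10D had 0 to 1 higher and 1 to 2 lower in either set of fits. *S1pr1* is also made by other cells, such as lymphocytes.

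Of 26 other sinusoidal genes, 20, 21 and 22 were tested, and those called higher and lower were 1 and 1, 0 and 0, and 6 and 1 in order of time, with median log2 fold changes of 0.20, -0.03 and 0.24. The 6 of 22 higher in HFCFD12W+T10W were near the 27.4% of all genes. They were 4 in the joint fit, and the number lower there was 1 to 3 over the alternatives and up to 4 with a mouse left out, the 4 without *Cebpa* fl/fl replicate 1. Without that control the median was 0.08. The median of HFCFD2W was 0.095 without *Cebpa* ΔHep replicate 5, and that of HFCFD8W+T10D ran from -0.13 to 0.07 with a mouse left out. In HFCFD2W, *Gata4*, a transcription factor of sinusoidal endothelium and of stellate cells, was lower (log2 fold change -0.86). *Maf*, another factor of sinusoidal endothelium, was higher (0.64). Whole-liver values do not tell in which cells *Gata4* and *Maf* differed. With the replicate block, 0 genes of this list were called higher in HFCFD2W. In HFCFD8W+T10D, 0 genes were called at an adjusted p under 0.05 by edgeR, and up to 2 in 6 alternatives. In HFCFD12W+T10W, *Dnase1l3*, a secreted nuclease, was lower (-0.59), and *Ednrb*, the endothelin B receptor, *Ltbp4*, a matrix protein, and the protease *Ctsl* were higher (0.97, 0.52 and 0.30). *Ctsl* and *Ltbp4* are also made by other liver cells.

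Of 28 other capillary, arterial and venous genes, 16, 20 and 21 were tested, and 4, 7 and 16 were called higher while 0 were called lower, in the 3 experiments in order of time, where 8.6%, 10.2% and 27.4% of all tested genes were higher. *Ednrb* stands in this list and in that of the other sinusoidal genes, and without it 15 of 20 and 5 of 21 were higher in HFCFD12W+T10W. At an unadjusted p under 0.05 the number lower was likewise 0 in each experiment, and it was 0 in each of the 6 alternatives, DESeq2 and limma included. The number higher was less stable. In HFCFD2W it was 2 to 4 over the alternatives and 3 to 5 with a mouse left out. For HFCFD8W+T10D these ranges were 6 to 8 and 5 to 8, and for HFCFD12W+T10W 15 to 19 and 14 to 16. The median log2 fold changes of this list were 0.30, 0.41 and 1.07. Among the alternatives the lowest medians were 0.17, 0.256 and 0.761, and the highest were 0.326, 0.514 and 1.166, in the same order. The basement membrane collagens *Col4a1* and *Col4a2* were called in all 3 experiments, by 1.77 and 1.77 in HFCFD12W+T10W, 0.71 and 0.90 in HFCFD8W+T10D and 0.72 and 0.68 in HFCFD2W. *Col15a1*, a collagen of the zone under the basement membrane, was higher by 3.52 and *Nid2*, which links basement membrane proteins, by 1.07 in HFCFD12W+T10W. *Vcam1*, an adhesion molecule for leukocytes, was higher by 0.90 in HFCFD2W, and in HFCFD8W+T10D *Icam1*, of like function, was higher by 1.02 and *Ly6c1*, also a gene of monocytes and lymphocytes, by 4.36. Many of these genes are made by stellate cells and fibroblasts as well as by endothelium.

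**Figure D4:**
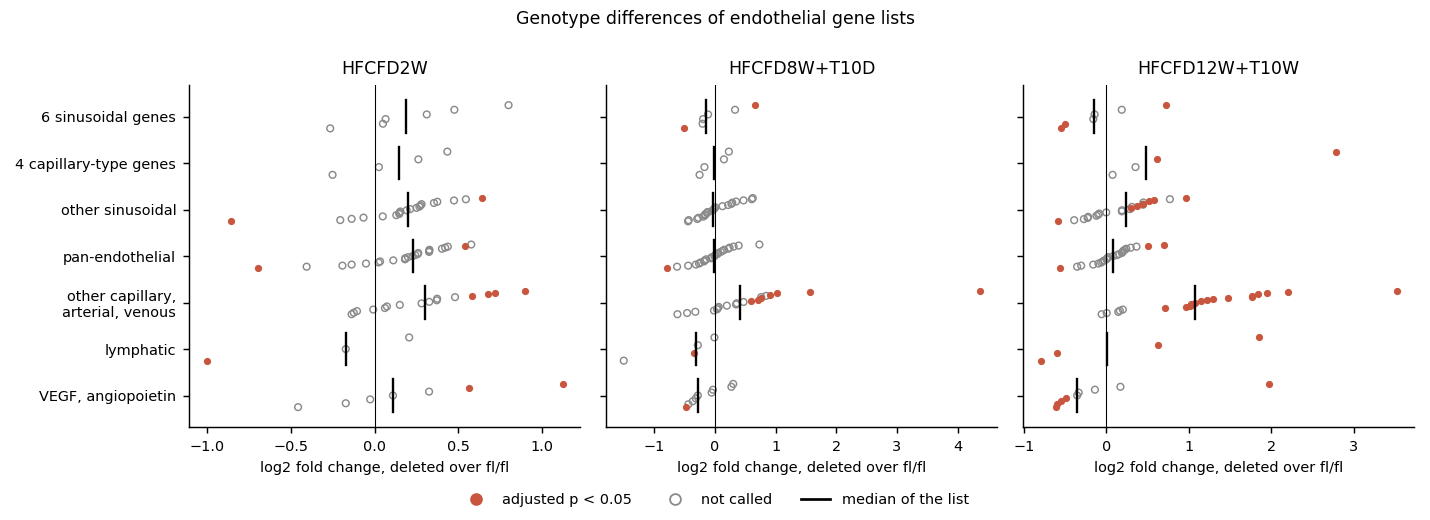
Log2 fold change of deleted over *Cebpa* fl/fl livers (x axis) of each tested gene in 7 endothelial and vascular lists (rows) for the 3 experiments, with called genes filled and a bar at the median. In HFCFD12W+T10W the other capillary, arterial and venous genes have a median of 1.07, and the general endothelial genes one of 0.08.

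Markers of stellate cells and fibroblasts were counted beside these lists. Of 12 such markers, 0 of 11 tested were called in HFCFD2W by edgeR or in any of 6 alternatives (2 were higher at an unadjusted p under 0.05, and up to 1 was called with a mouse left out), and 4 of 12 were called higher in HFCFD8W+T10D. That count ran from 3 to 6 over the alternatives and from 1 to 7 with a mouse left out, with 1 without *Cebpa* ΔHep,ERT2 replicate 2 or 3 or *Cebpa* fl/fl replicate 3 or 4, and 7 without *Cebpa* ΔHep,ERT2 replicate 4. Of all tested genes, 8.6%, 10.2% and 27.4% were called higher in order of time. All 12 of these markers were called higher in HFCFD12W+T10W, where the median log2 fold change was 1.85. Summed over the 12, their level was 138.4 to 277.2 CPM and 146.1 to 306.3 CPM in HFCFD2W controls and deleted livers, 324.6 to 614.5 and 654.9 to 1268 CPM in HFCFD8W+T10D, and 291.4 to 369.2 and 1286 to 1576 CPM in HFCFD12W+T10W, and none of the 12 was at 0 in any group. In HFCFD8W+T10D the summed level was higher in the deleted livers, and the 4 markers called there were *Ly6a*, *Col3a1*, *Col1a1* and *Lum*. Of these, *Ly6a* averaged 143 CPM in deleted livers and 12.83 CPM in controls, and *Col3a1* 240.7 and 107.6 CPM. Within groups, *Cd34* had r = 0.41 with the mean of these markers and r = 0.28 with that of the general endothelial genes over the 30 livers. The part of these cells in the *Cd34* difference and in that of the matrix genes was not tested.

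**Figure D5:**
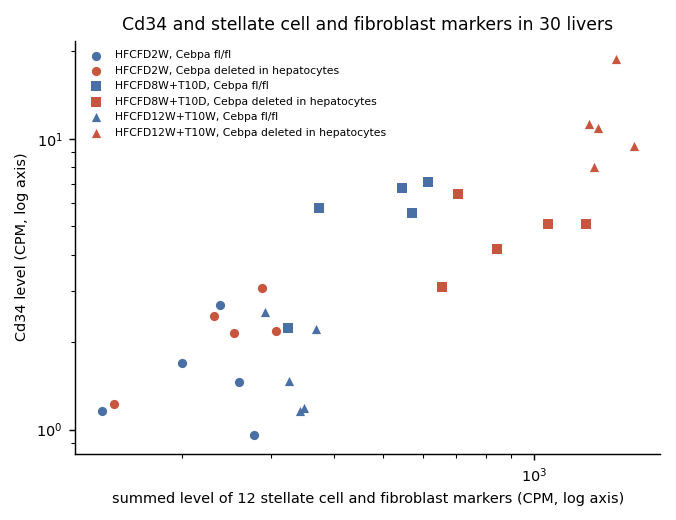
*Cd34* level (y axis, CPM, log scale) against the summed level of 12 stellate cell and fibroblast markers (x axis, CPM, log scale) in each of the 30 livers, by experiment and genotype. Deleted livers of HFCFD12W+T10W lie at the upper right, at 8.001 to 18.7 CPM of *Cd34*, and those of HFCFD8W+T10D lie between 3.10 and 6.47 CPM at summed levels of 654.9 to 1268 CPM.

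Among all tested genes, 27.4%, 10.2% and 8.6% were called higher in HFCFD12W+T10W, HFCFD8W+T10D and HFCFD2W, and 23.8%, 6.83% and 8.09% were called lower. The counts of markers of macrophages and other cells stand beside these shares, and no test compared them. Markers of recruited macrophages were called higher for 9 of 9 tested in HFCFD12W+T10W, 9 of 9 in HFCFD8W+T10D and 4 of 5 in HFCFD2W. Their summed levels were 173.3 to 391 CPM in controls and 1269 to 1712 CPM in deleted livers of the first. *Spp1*, the gene of osteopontin, is in this list but is also made by cholangiocytes and hepatocytes, and it held 805.7 CPM on average in those deleted livers and 46.1 CPM in their controls. Without *Spp1*, 8 of 8, 8 of 8 and 3 of 4 were called higher in the same order, and the sums in HFCFD12W+T10W were 136.0 to 339.6 CPM in controls and 544.6 to 729.1 CPM in deleted livers. The 4 called in HFCFD2W were *Cd68*, *Csf1r*, *Lyz2* and *Spp1*, while *Trem2*, *Gpnmb*, *Itgax* and *Ccr2* were not tested there. With *Spp1* included, the 4 of HFCFD2W became 2 in the joint fit and with the replicate block, and 5 by DESeq2. Markers of resident macrophages were called higher and lower for 3 and 3 of 9 in HFCFD12W+T10W, near the shares of all genes. They were called higher and lower for 2 and 0 of 8 in each of the other experiments. With a mouse left out, the 2 became 0 to 4 in HFCFD8W+T10D and 1 to 4 in HFCFD2W, where the joint fit gave 0. Those higher in HFCFD12W+T10W were *Adgre1*, *Vsig4* and *Xcr1*, of which *Xcr1* is better known from dendritic cells, and those lower were *Cd163*, *Marco* and *Timd4*, the last with a log2 fold change of -2.72. *Stab1* and *Lyve1* are also made by some macrophages, and *Clec4g* had r = 0.67 within groups with the mean of the resident markers. Cholangiocyte markers were called higher for 0 of 1, 3 of 5 and 6 of 6 tested genes, and hepatocyte markers were called lower for 0, 3 and 5 of 9, in order of time. Of 5 red cell markers, 4 globin genes were called higher in HFCFD8W+T10D and 3 in HFCFD12W+T10W, while *Alas2*, an enzyme of haem synthesis, was lower in HFCFD12W+T10W and in HFCFD2W. The number higher ran from 1 to 4 with a mouse left out in either experiment, and over the alternatives from 1 to 4 in HFCFD8W+T10D and from 0 (in the joint fit) to 4 in HFCFD12W+T10W. Summed, they measured 318.9 to 557.2 CPM in controls and 357.6 to 2025 CPM in deleted livers of HFCFD8W+T10D, and 244.1 to 621.4 CPM and 441.5 to 1066 CPM in HFCFD12W+T10W, with none of the 5 at 0. *Hbb-bs*, a beta globin, had log2 fold changes of 1.26 and 0.90 in these experiments, and near-identical globin copies can share reads. The part of blood in the *Cd34* and *Vwf* values was not tested. None of the macrophage markers was at 0 in HFCFD12W+T10W, and their part in the values of *Stab1*, *Lyve1* and *Clec4g* was not tested.

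Of 11 genes listed with the VEGF and angiopoietin systems, 7, 9 and 9 were tested. Most are ligands or co-receptors of *Kdr*, *Flt4* or *Tek*, but the list also holds *Flt1*, itself a VEGF receptor, and *Angptl4*, a lipase inhibitor that is no ligand of *Tek*. Those called higher and lower were 1 and 4 in HFCFD12W+T10W (27.4% and 23.8% of all genes), 0 and 1 in HFCFD8W+T10D (10.2% and 6.83%) and 2 and 0 in HFCFD2W (8.6% and 8.09%). In HFCFD2W the number higher ran from 1 to 2, both over the alternatives and with a mouse left out. The number lower in HFCFD8W+T10D ran from 1 to 2 in the same fits. In HFCFD12W+T10W, 1 to 2 were higher over the alternatives, and 4 to 5 were lower with a mouse left out. *Nrp1*, a co-receptor, was higher in HFCFD2W (log2 fold change 0.57), close to the threshold at an adjusted p of 0.0441 (edgeR). It was lower in HFCFD8W+T10D (-0.49) and HFCFD12W+T10W (-0.61, adjusted p = 0.0137, edgeR). In HFCFD12W+T10W, *Vegfa*, the main ligand of *Kdr* and in the liver largely made by hepatocytes, was lower (-0.49, adjusted p = 0.000302, edgeR), at 20.7 CPM against 29.9 CPM, and so was the co-receptor *Nrp2* (-0.60). *Angpt1*, a ligand of *Tek*, was higher (1.98) and *Angptl4* was lower there (-0.55) and higher in HFCFD2W (1.12). *Vegfc*, a ligand of *Flt4*, was not called, with a mean of 3.26 CPM in deleted livers and 2.96 CPM in controls of HFCFD12W+T10W.

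*Flt4* and *Lyve1* are also genes of lymphatic endothelium. Of 6 lymphatic genes, 3, 4 and 4 were tested, and those called higher and lower were 0 and 1, 0 and 1, and 2 and 2 in order of time, beside the same shares of all genes. In HFCFD12W+T10W up to 4 were called higher in the 6 alternatives, while the number lower stayed at 2. Both numbers stayed at 2 with a mouse left out. The median log2 fold change of this list was 0.013 there. Among the alternatives its lowest value was -0.03 and its highest 1.227. *Prox1*, the master factor of lymphatic endothelium but made in the liver chiefly by hepatocytes, was lower in HFCFD2W and HFCFD12W+T10W (log2 fold changes of -1.003 and -0.79). In HFCFD8W+T10D (-0.35, adjusted p = 0.0431, edgeR) it was not called without the low-count filter, with upper quartile scaling or in 7 of the 10 fits that left out a mouse. *Nrp2*, which also stands among the co-receptors, was lower and *Pdpn* and *Reln* were higher in HFCFD12W+T10W (1.86 and 0.63). Summed over the 6, the levels were 189.6 to 217.7 CPM in controls and 160.8 to 198.5 CPM in deleted livers of HFCFD12W+T10W. Most of the control sum came from *Prox1*, *Reln* and *Nrp2*, with means of 107.8, 60.3 and 35.15 CPM. In the controls of that experiment 2 of the 6 genes had at most 3 counts in each library and in the deleted livers 0, and their part in the *Flt4* difference was not tested.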

How the data were processed

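Whole-liver mRNA of 30 male mice had been sequenced from strand-specific libraries, 1 per mouse. The authors deposited expected counts and TPM values per library, made with RSEM 1.2.22 after trimming with Trimmomatic 0.36 and alignment with STAR 2.5.1 to mm10 according to the submitters' processing notes, in which Picard 1.84 and DESeq2 are also named. They also deposited a signal table of counts scaled by TMM for 15010 genes. All 55450 gene identifiers matched GENCODE M21. RSEM splits reads that fit several genes, so expected counts can be fractions, but all 300 member values were whole.

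Expected counts were rounded and analysed with R 4.3.3 and edgeR 4.0.16: low-count filter (filterByExpr), TMM scaling, quasi-likelihood test of genotype within each experiment, and a joint fit of 30 libraries for differences between experiments and between controls. Log2 CPM used a prior count of 2. Alternatives were no low-count filter, upper quartile scaling, DESeq2 1.42.0, limma 3.58.1 on the authors' table with a pseudocount of 1, the joint fit, a replicate block, a fold change over 2, an adjusted p under 0.01 and leaving out each mouse. Leaving out mice in the joint fit, *Spp1* from the recruited macrophage list and *Ednrb*, which stands in 2 lists, was added after seeing the data. The fits were tested on simulated data.

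The members and gene lists were chosen with earlier results of these data known. Named genes are the members and, from each other list, called genes among the 4 with the smallest p per experiment. *Vegfc*, *Nt5dc2*, *Flt1*, *Itga2b*, *Vsig4*, *Tie1*, *Tek* and *Cdh5* were named after values were seen, as were further values of genes named in another experiment. The 5 genes most like *Stab2*, *Clec4g*, *Plvap* and *Cd34* were those with the highest Pearson r of log2 CPM. The mice are the replicates, and with 7996142 to 10257364 counts each, those of *Cd34* were as low as 7 in a library. Replicate numbers are shared between genotypes, and same-number correlations of the 2000 most variable genes were -0.196 to 0.138, so they do not pair mice.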

Additional observations from a re-analysis of the deposited data

Results flagged for a closer look

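Of 60 groups of 5 values (10 genes in 6 groups), 5 had 1 liver far from the other 4, by a gap larger than Dixon's 95% critical share of the range. Chance alone flags about 1 in 20 groups. In *Cebpa* ΔHep,ERT2 livers of HFCFD12W+T10W, replicate 5 was the highest for *Lyve1* (19.98 CPM) and the lowest for *Flt4* (44.1 CPM), and replicate 3 was the lowest for *Plvap* (25.4 CPM). *Cebpa* fl/fl replicate 3 of HFCFD2W was the highest for *Stab2* (49.1 CPM), and *Cebpa* fl/fl replicate 5 of HFCFD8W+T10D was the lowest for *Clec4g* (27.8 CPM).

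Genotype effects that differed between experiments were those of *Cd34*, by 2.93 (HFCFD12W+T10W minus HFCFD8W+T10D) and by 2.31 (HFCFD12W+T10W minus HFCFD2W) on the log2 scale, and that of *Clec4g*, by -0.59 (HFCFD12W+T10W minus HFCFD2W). In edgeR's joint fit the adjusted p were 0.000147, 0.000611 and 0.0404.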

How the results depend on the processing

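*Stab2* and *Cd34* in HFCFD12W+T10W, *Flt4* in HFCFD12W+T10W and *Stab2* in HFCFD8W+T10D kept their direction and call in all 6 alternative fits and in all 10 that left out a mouse. Over the alternative fits the *Cd34* log2 fold change ran from 2.18 to 2.87. In HFCFD2W, 1 gene instead of 0, *Lyve1*, was called without the low-count filter and by DESeq2, and 0 to 2 with a mouse left out. The 2 calls of HFCFD8W+T10D became 1 by limma on the authors' table, 0 at a fold change over 2, 0 at an adjusted p under 0.01, and 1 to 2 with a mouse left out. The 5 calls of HFCFD12W+T10W became 1 at a fold change over 2, 4 with upper quartile scaling and at an adjusted p under 0.01 (both without *Clec4g*), 4 in the joint fit (without *Vwf*), and 4 to 5 with a mouse left out. The genes whose effect differed between HFCFD12W+T10W and HFCFD2W became 1 instead of 2, *Cd34* alone, with upper quartile scaling and with DESeq2, and 1 to 3 with a mouse left out. The cause was not tested.

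With the replicate number as a replicate block, the counts of calls were 0, 2 and 5 as before, but in HFCFD12W+T10W *Pecam1* was called (adjusted p = 0.0487) and *Clec4g* was not (0.0541). The block turned the sign of *Vwf* in HFCFD2W, to -0.068. Leaving out 1 mouse turned the sign of 6 differences that were not called. In HFCFD2W the log2 fold change ran from -0.052 to 0.118 for *Clec4g*, from -0.049 to 0.145 for *Kdr* and from -0.139 to 0.18 for *Vwf*. That of *Lyve1* ran from -0.271 to 0.032 in HFCFD8W+T10D and from -0.337 to 0.173 in HFCFD12W+T10W, where *Plvap* ran from -0.024 to 0.172. Counts of 7 to 23 per library limit the precision of *Cd34* in HFCFD2W.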
